A study of Rattus norvegicus with 6 samples.

Results

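The EGF ligands and ErbB receptors were followed in the renal cortex of rats given potassium bromate, as 10 genes: the ligand genes Egf, Hbegf, Areg, Ereg, Tgfa and Btc and the receptor genes Egfr, Erbb2, Erbb3 and Erbb4. They were chosen by name, and every probe whose transcript accession mapped to one of these symbols was taken. These genes and the gene lists below were chosen with earlier results of these data known. The shares of all genes printed beside their counts are therefore descriptions. The members are 10 of the 15645 genes with a named probe, and 19 of the 61537 probes on the array. RNA came from 6 male Sprague-Dawley rats, bought at 5 weeks of age. In the bromate group 3 rats received potassium bromate, an oxidising compound toxic to the kidney, at 100 mg/kg/day over 4 weeks, and in the water group 3 rats received water over the same time. Each animal had its own single-colour array, and precision is limited by there being 6.

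The ligands of this family are made as precursors anchored in the cell membrane, and proteases cut them there and free the part that binds the receptor. EGF, amphiregulin, epiregulin, TGF-alpha, betacellulin and HB-EGF bind the EGF receptor, and betacellulin, epiregulin and HB-EGF also bind ErbB4. The receptors then pair with each other and switch on the ERK and PI3K-AKT routes. ErbB2 has no known ligand of its own and ErbB3 has a very weak kinase, so both act as partners. In the kidney, EGF is made mainly by cells of the thick ascending limb and the distal convoluted tubule and is shed into the urine, and the EGF receptor of tubule cells takes part in repair after injury.

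Levels are given as log2 of the signal over the array's own 75th percentile, differences are bromate minus water on this log2 scale ± standard error, and n = 3 animals per group throughout. A probe was tested if at least 3 of the 6 arrays had it well above background, and it is said to have risen or fallen when limma gave an adjusted p (Benjamini-Hochberg over 37781 probes) under 0.05. Between 57.9% and 63.1% of probes per array were well above background and 0 were saturated. The correlation between arrays, taken across probes, was 0.987 to 0.991 within the bromate group, 0.983 to 0.992 within the water group and 0.966 to 0.977 between them; probes do not stand for replicates. The slide and scan of water replicate 1 held no other array, and the remaining 5 arrays had a slide in common.

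Of the 19 probes 17 were tested, from 9 of the 10 genes. Both Egf probes fell by more than 5 on the log2 scale, and the other called probes differed by less than 1. In all 2 probes rose, in Hbegf and Egfr, 5 fell, in Egf, Erbb2 and Erbb3, and 10 did not pass. Among all probes tested 14.8% were called, 7.19% as higher and 7.6% as lower under bromate. The median difference of the 17 probes was -0.09, against -0.02 for all probes tested. The 3 bromate and 3 water values did not overlap in 9 of the 17, against 41.1% of all probes. The calls of Egf held when any 1 array was left out, and those of the other genes did not, as set out below for each.

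**Figure D1:**
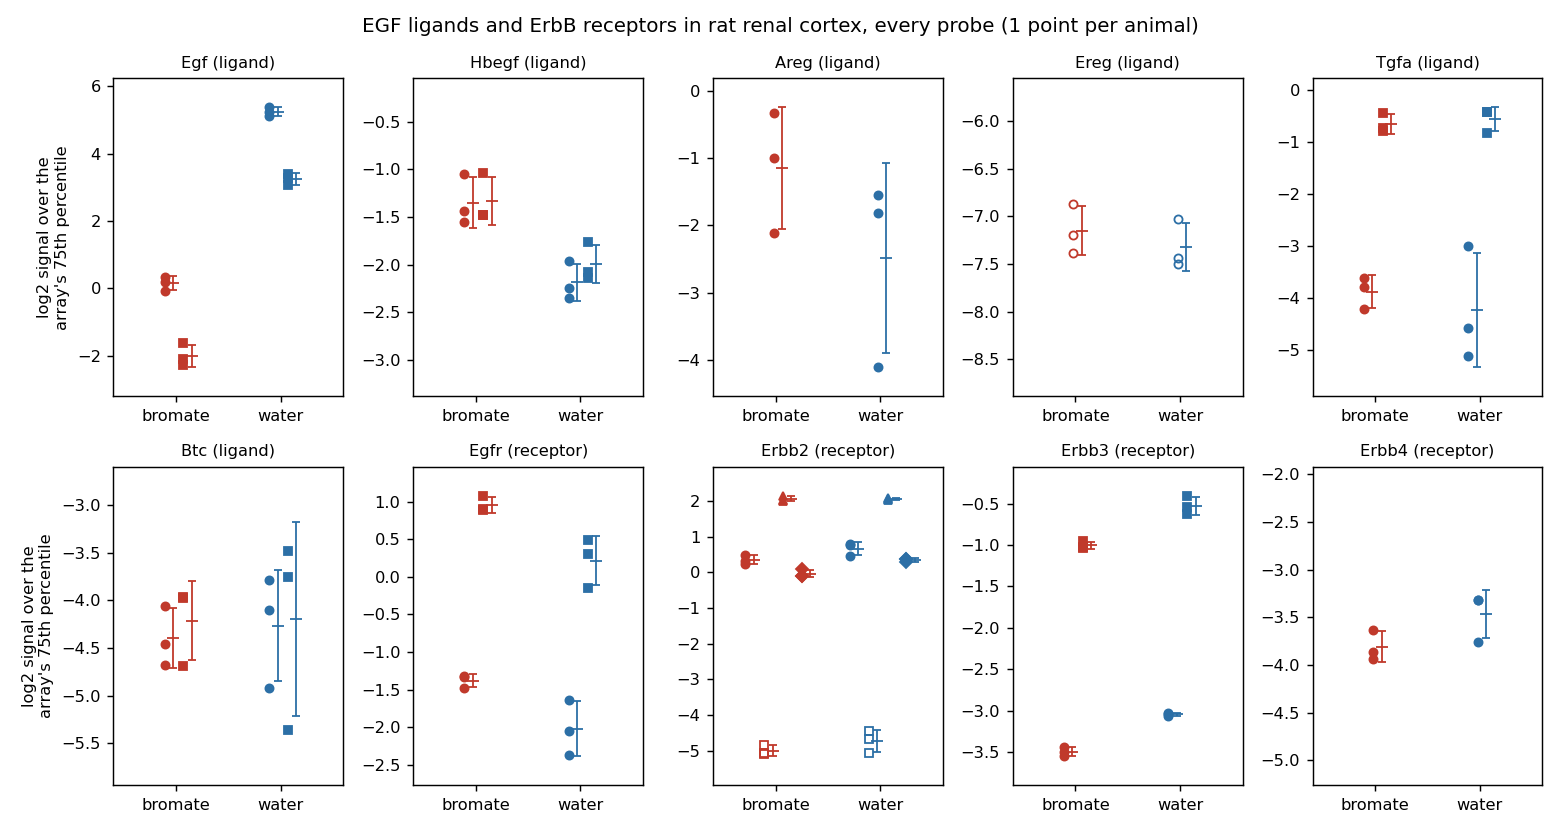
Level of every probe of the 10 genes (y axis, log2 signal over the array's 75th percentile) in bromate (red, left) and water animals (blue, right), 1 point per animal, with the mean and SD beside the points. Marker shapes separate the probes of a gene, and open markers stand for probes that were well above background on fewer than 3 arrays. The Egf groups lie far apart on both probes, and the Ereg probe is dim everywhere.

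The start regions of the ligand genes that the results turn on are shown first, since Egf had the largest change of the family, Hbegf was the ligand whose probe rose and Areg was the ligand that varied most between animals. They are the 250 bases before the annotated gene start, from RefSeq on build GRCr8, which held a promoter for 8 of the 10 genes. The Egf region lies at chr2:220976298-220976547, the Hbegf region at chr18:28390221-28390470 and the Areg region at chr14:17265642-17265891, all on the minus strand and printed 5′ to 3′ along the gene. Capitals mark exact matches, on either strand, to any of 5 motifs: the AP-1 motif TGANTCA, the cyclic AMP response element TGACGTCA, the antioxidant response element TGACNNNGC that NRF2 binds, the TATA box TATAAA and the GC box GGGCGG.
Egf: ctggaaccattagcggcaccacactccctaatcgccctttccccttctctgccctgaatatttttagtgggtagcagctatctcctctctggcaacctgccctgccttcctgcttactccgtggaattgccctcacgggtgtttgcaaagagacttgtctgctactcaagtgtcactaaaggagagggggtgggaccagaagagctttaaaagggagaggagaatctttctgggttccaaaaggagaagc
Hbegf: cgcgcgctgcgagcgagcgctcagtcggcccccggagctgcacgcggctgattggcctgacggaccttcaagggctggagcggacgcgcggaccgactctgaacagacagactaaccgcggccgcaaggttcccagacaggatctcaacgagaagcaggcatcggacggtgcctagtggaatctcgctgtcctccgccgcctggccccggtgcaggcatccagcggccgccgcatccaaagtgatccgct
Areg: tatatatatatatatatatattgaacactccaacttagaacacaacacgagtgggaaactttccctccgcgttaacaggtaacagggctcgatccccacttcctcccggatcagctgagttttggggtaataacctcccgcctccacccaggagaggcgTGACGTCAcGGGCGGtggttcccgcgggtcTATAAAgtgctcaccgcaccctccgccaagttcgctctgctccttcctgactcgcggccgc
The Areg region held a cyclic AMP response element starting 91 bases before the gene start, a GC box at 82 and a TATA box at 61, none of which overlap. The first of these motifs occurred in 1.59% of the 33469 rat promoters of the same length, the GC box in 30.5% and the TATA box in 12.9%. No exact match to the 5 motifs was found in the Egf or Hbegf window, and none of the 8 windows held the AP-1 motif (6.34% of all promoters) or the antioxidant response element (10.1%). The windows of Tgfa, Btc, Egfr, Erbb2 and Erbb4 each held a GC box and no other of the 5. These letters are descriptions of the windows and not measured sites. The G and C content was 51.6% in the Egf window, 67.6% in that of Hbegf and 54.4% in that of Areg, with a median of 51.2% over all promoters. In the same gene table Btc, Areg and Ereg lie next to each other on chromosome 14, followed by the related ligand gene Epgn, which had no named probe.

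Egf encodes the founding ligand, a long precursor from which EGF is cut. Its probe A_42_P831499 had levels of 0.35, -0.07 and 0.18 in bromate replicates 1, 2 and 3, against 5.37, 5.13 and 5.24 in water replicates 1, 2 and 3. The groups lay far apart, and within each the animals stayed close together. The difference was -5.09 ± 0.13 (95% interval -5.42 to -4.76, adjusted p = 0.000178 by limma), a signal 34.1-fold lower under bromate. The other probe, A_64_P120734, had levels of -1.63, -2.29 and -2.10 in bromate animals, against 3.40, 3.06 and 3.28 in water animals. Its difference was -5.25 ± 0.19 (95% interval -5.72 to -4.78, adjusted p = 0.000466), or 38.2-fold lower. Both probes were well above background on all 6 arrays, so these folds are measured on both sides. Ordered by difference from the lowest, A_64_P120734 had rank 6 and A_42_P831499 rank 7 of all 37781 probes. With any 1 array left out their differences ran from -5.44 to -4.98 and adjusted p went up to 0.00585. In whole tissue, fewer cells that make Egf and less Egf RNA per cell cannot be told apart.

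Markers of the segments that make Egf, the thick ascending limb and distal tubule, were also lower as a list. Of 14 listed genes 13 had a named probe and 12 were tested (1 probe per gene, the brightest); Pvalb was well above background on 0 of the 6 arrays. Of these 9 fell, 1 rose and 2 did not pass, against 8.54% of named genes that fell and 8.76% that rose. The list median was -1.42, against -0.02 for all 11568 named genes tested. The summed signal of the 12, relative to the 75th percentile, was 176.4 to 227.4 on the bromate arrays and 523.8 to 731.4 on the water arrays. Umod, which encodes uromodulin, the main protein of normal urine, had the lowest difference of the list (-2.50 ± 0.39, adjusted p = 0.015). It was followed by the calcium-sensing receptor gene Casr (-2.25 ± 0.18, adjusted p = 0.0025), the calcium-binding protein gene Calb1 (-2.09 ± 0.37, adjusted p = 0.0208) and Slc12a3, the sodium chloride carrier gene of the distal convoluted tubule (-1.88 ± 0.38, adjusted p = 0.0286). The member that rose was the prostaglandin receptor gene Ptger3 (0.98 ± 0.14, adjusted p = 0.0113), named after its value was seen. The count that fell was 5 without bromate replicate 2 and 5 without water replicate 2. Casr was called without any 1 array, while Umod was lost without bromate replicate 2 or 3 or water replicate 2. Slc12a3 was lost without bromate replicate 2 or 3 or water replicate 2 or 3, and Calb1 without any 1 array other than water replicate 1.

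All 12 markers had a smaller fall than Egf or none. On each array, the level of Egf (A_42_P831499) minus the mean level of the 12 markers was -1.67, -1.98 and -1.92 in bromate animals, against 2.06, 1.84 and 2.06 in water animals. The difference of this log ratio was -3.85, and the groups did not overlap. The exact two-sided permutation test over the 6 animals gave p = 0.1, which is the smallest p this design allows. With the other Egf probe the difference of the log ratio was -4.01 (exact permutation p = 0.1). The part of the lower marker levels in the lower Egf level was not tested further.

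**Figure D2:**
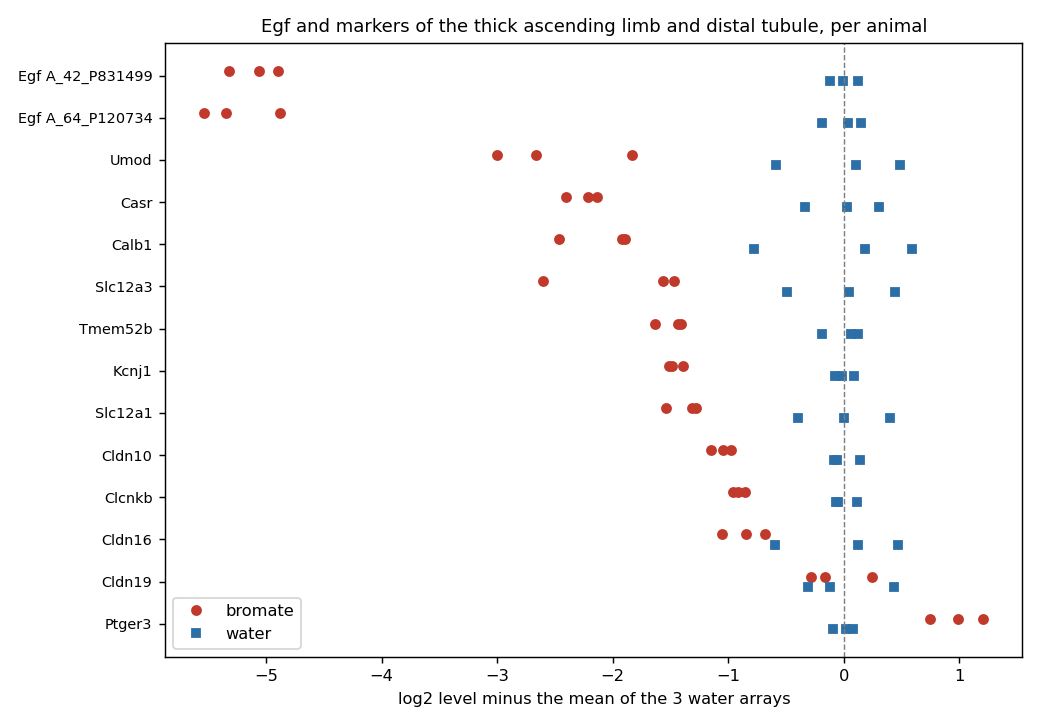
Level of Egf (both probes) and of 12 markers of the thick limb and distal segments in each animal, given as the log2 level minus the mean of the 3 water animals of the same probe (x axis), with bromate animals as red circles and water animals as blue squares. Both Egf probes lie near -5 in bromate animals, below all markers, Umod being the next lowest, and Ptger3 lies above 0.

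Hbegf encodes HB-EGF, a ligand that binds heparin and is made by many cell types. Its probe A_44_P184505 had levels of -1.05, -1.55 and -1.44 in bromate animals, against -2.25, -2.35 and -1.97 in water animals. All bromate values were higher than all water values, and the difference was 0.84 ± 0.17 (1.79-fold, adjusted p = 0.0293). The other probe, A_64_P041521, had levels of -1.04, -1.48 and -1.48 in bromate animals, against -1.76, -2.08 and -2.14 in water animals. It gave 0.66 ± 0.17 (1.58-fold, 95% interval 0.25 to 1.07) and did not pass (adjusted p = 0.0516), although its groups did not overlap either. The call of A_44_P184505 was lost when any 1 of the 6 arrays was left out, with adjusted p from 0.0512 to 0.0949 and differences from 0.69 to 0.95. Bromate replicate 1 had the highest value on both probes.

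Macrophages are among the cells that make HB-EGF, and their markers are given beside it. Of 14 listed genes 12 were tested, 1 rose (8.76% of named genes did), the complement gene C1qb (0.93 ± 0.21, adjusted p = 0.0367), 0 fell by limma (1 at an unadjusted p under 0.05) and 11 did not pass. The list median was 0.36, and the summed signal was 102.2 to 163.2 on the bromate arrays and 102.2 to 126.4 on the water arrays. Cd163 and Ccr2, which mark macrophages and monocytes, were not well above background on more than 1 array. The number that rose was 0 without bromate replicate 2 or 3 or any 1 water array, and 3 without bromate replicate 1. Their part in the Hbegf values was not tested.

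Areg encodes amphiregulin, a ligand of the EGF receptor that injured epithelia release. Its single probe had levels of -0.33, -2.11 and -1.002 in bromate animals, against -1.54, -1.81 and -4.11 in water animals. The groups overlapped, since bromate replicate 2 was lower than water replicates 1 and 2. The difference of 1.34 ± 0.79 (95% interval -0.60 to 3.28) did not pass (adjusted p = 0.291) and was 0.53 without water replicate 3, the lowest animal. The SD was 0.90 in the bromate group and 1.41 in the water group, the widest of the 19 probes in both groups.

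The remaining ligand genes gave no call. Ereg, the gene of epiregulin, was not well above background on any of the 6 arrays, and its probe was not tested. Tgfa encodes TGF-alpha, and its brighter probe A_64_P122865 had levels of -0.44, -0.74 and -0.79 in bromate animals, against -0.82, -0.43 and -0.43 in water animals. The groups overlapped, and the difference was -0.09 ± 0.15 (95% interval -0.47 to 0.28, adjusted p = 0.707). Its dim probe A_44_P310168 gave 0.36 ± 0.54 (adjusted p = 0.68), with water values spread from -5.13 to -3.01. Btc, the gene of betacellulin, was near background, with its probes well above it on 5 and 4 of the 6 arrays. Their differences were -0.13 ± 0.32 (95% interval -0.92 to 0.65) and -0.02 ± 0.52 (95% interval -1.30 to 1.26), with adjusted p of 0.807 and 0.985. On both Btc probes the groups overlapped.

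**Figure D3:**
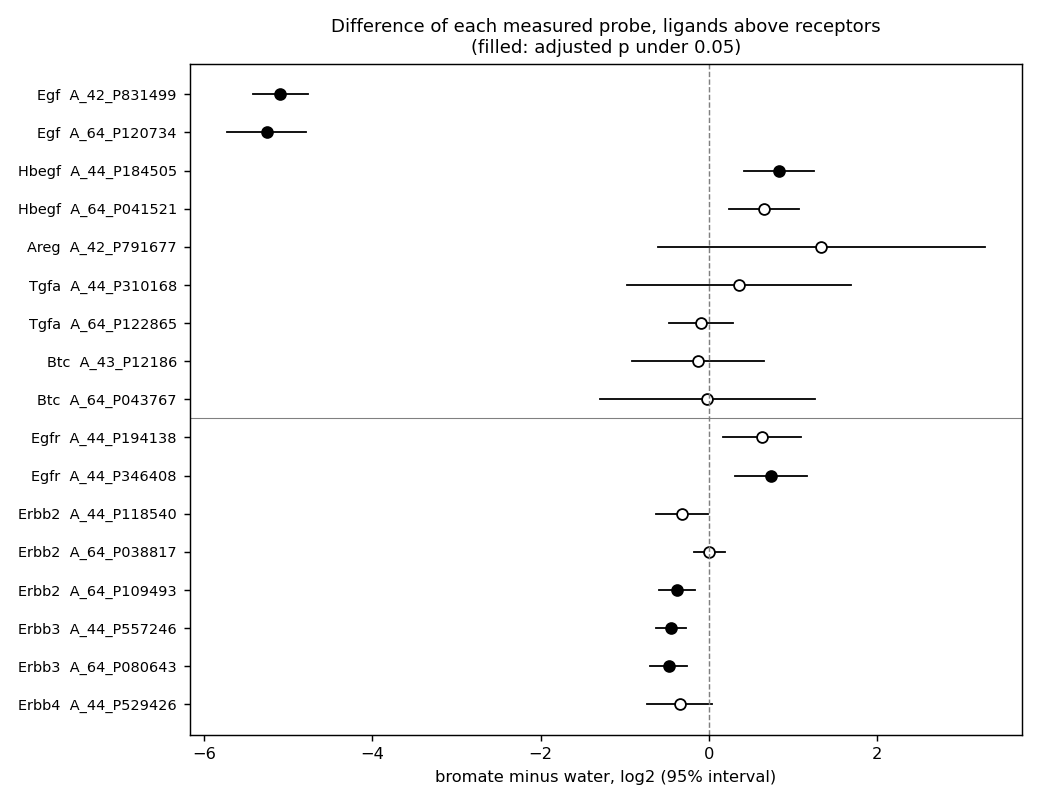
Difference of the 17 tested probes (bromate minus water, log2, x axis) with its 95% interval, ligands above and receptors below the grey line. Filled points passed the threshold on the adjusted p. Egf stands near -5 on both probes, the Hbegf and Egfr probes lie above 0, and the Erbb3 probes lie below 0 with narrow intervals.

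Among the receptors, Egfr was higher and Erbb3 lower under bromate. Egfr encodes the EGF receptor. Its brighter probe A_44_P346408 had levels of 0.90, 1.07 and 0.89 in bromate animals, against 0.49, 0.30 and -0.15 in water animals. The groups did not overlap, and the water animals were spread more widely. The difference was 0.74 ± 0.18 (1.67-fold, adjusted p = 0.0434). The dimmer probe A_44_P194138 had levels of -1.48, -1.34 and -1.33 in bromate animals, against -1.64, -2.05 and -2.37 in water animals. It gave 0.64 ± 0.19 (1.56-fold, 95% interval 0.17 to 1.10) and did not pass (adjusted p = 0.0744), with no overlap between groups. On both probes water replicate 1, the array on the other slide, was the highest water animal and water replicate 3 the lowest. The call of A_44_P346408 was kept without water replicate 1 (0.88, adjusted p = 0.0382) and lost without any other 1 array, with adjusted p from 0.0636 to 0.127.

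Erbb3 encodes the receptor with the weak kinase, which binds neuregulins and couples to PI3K. Its probe A_64_P080643 had levels of -1.03, -1.03 and -0.95 in bromate animals, against -0.41, -0.63 and -0.54 in water animals. The other probe, A_44_P557246, had levels of -3.44, -3.55 and -3.50 in bromate animals, against -3.02, -3.04 and -3.06 in water animals. Neither probe had overlapping groups, and animals of a group differed little. The differences were -0.48 ± 0.09 (1.39-fold lower, adjusted p = 0.0237) and -0.45 ± 0.07 (1.37-fold lower, adjusted p = 0.0173). The call of A_64_P080643 was kept without water replicate 1 and lost without any other 1 array (adjusted p up to 0.0837). The call of A_44_P557246 was kept without bromate replicate 1 or water replicate 1 and lost without each of the other arrays (adjusted p up to 0.0671). Their differences stayed between -0.53 and -0.42 with any 1 array left out.

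Erbb2, the gene of the receptor without a ligand, had 4 probes, of which 3 were tested and 1 was called. The brightest, A_64_P038817, had levels of 2.02, 2.04 and 2.14 in bromate animals, against 2.02, 2.07 and 2.08 in water animals, and a difference of 0.01 ± 0.08 (95% interval -0.18 to 0.20, adjusted p = 0.943). Its groups overlapped throughout. A_64_P109493 fell, with levels of -0.09, -0.10 and 0.09 in bromate animals, against 0.38, 0.29 and 0.38 in water animals (-0.38 ± 0.09, 1.3-fold lower, adjusted p = 0.041). Leaving out any 1 array ended this call, with adjusted p from 0.0602 to 0.126. A_44_P118540 gave -0.32 ± 0.13 and did not pass (adjusted p = 0.142), with overlapping groups. The dimmest, A_64_P038812, was well above background on 0 bromate arrays and 2 water arrays and was not tested. Its levels were -5.10, -4.83 and -5.07 in bromate animals, against -5.05, -4.46 and -4.68 in water animals, with overlapping groups. All 4 are assigned to the same transcript accession, and whether the differences of the probes differ from each other was not tested.

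Erbb4 encodes the receptor that binds both neuregulins and some EGF ligands. Its probe had levels of -3.63, -3.86 and -3.94 in bromate animals, against -3.32, -3.76 and -3.32 in water animals. The groups overlapped through water replicate 2, and the difference of -0.35 ± 0.16 (95% interval -0.73 to 0.04) did not pass (adjusted p = 0.187).

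**Figure D4:**
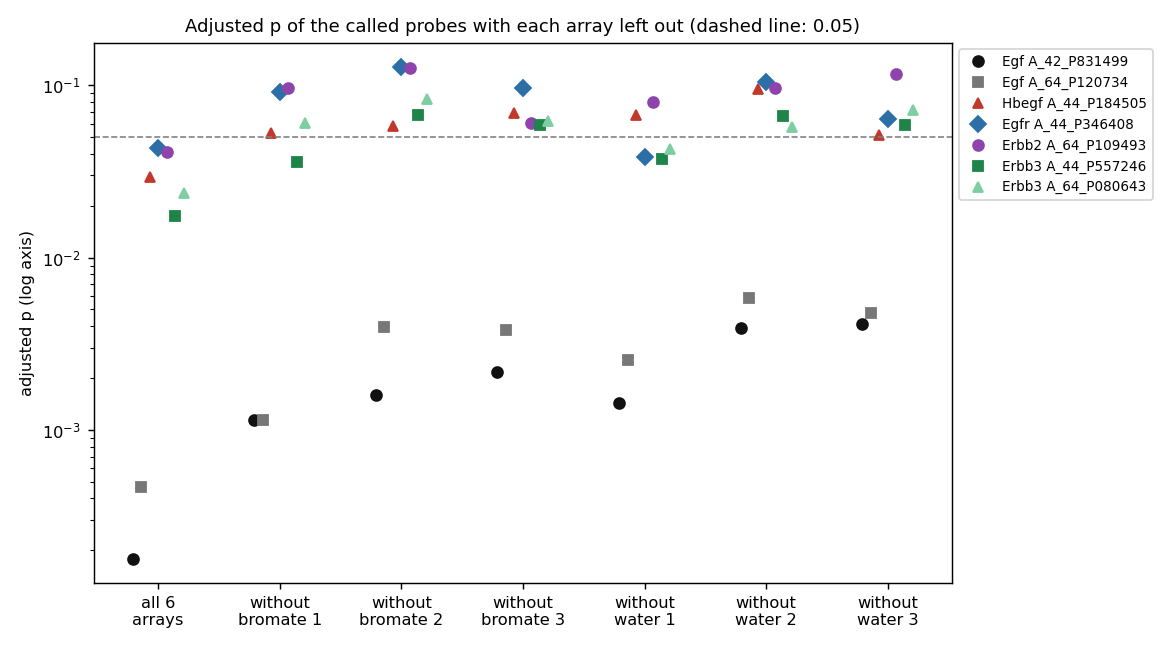
Adjusted p (log y axis, dashed line at 0.05) of the 7 called probes with all 6 arrays and with each array left out in turn (x axis). Both Egf probes stay below 0.01, and the probes of Hbegf, Egfr, Erbb2 and Erbb3 move to or above the dashed line in most settings.

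Markers of the tubule segments that hold the receptors are given beside them. Among all named genes 8.54% fell and 8.76% rose. Of 12 proximal tubule markers 5 fell, 0 rose by limma (0 also at an unadjusted p under 0.05) and 7 did not pass, with a median of -0.38 and a summed signal of 1575 to 1791 on the bromate arrays and 2272 to 2277 on the water arrays. The largest falls were those of Slc5a2, the main glucose carrier of the early proximal tubule (-0.92 ± 0.12), the endocytic receptor gene Lrp2 (-0.90 ± 0.09), the phosphate carrier gene Slc34a1 (-0.46 ± 0.08) and the anion carrier gene Slc22a8 (-0.44 ± 0.10). The number that fell was 2 without bromate replicate 2 or 3 or water replicate 2 or 3, and the calls of Slc34a1 and Slc22a8 were among those lost each time. Of 6 collecting duct markers 3 fell and 0 rose (0 at an unadjusted p under 0.05), with a median of -0.65 and summed signals of 170.7 to 296.0 under bromate and 174.5 to 258.5 under water. Those that fell were the vasopressin receptor gene Avpr2 (-1.18 ± 0.11), Hsd11b2 (-0.92 ± 0.17), whose enzyme inactivates glucocorticoids, and the sodium channel gene Scnn1b (-0.76 ± 0.19). The number that fell was 1 without any 1 array other than water replicate 1. The 3 that did not pass, named after their values were seen, went both ways. Scnn1g was lower (-0.53 ± 0.20), while Aqp3 (0.03 ± 0.17) and Aqp2, the brightest of the list (0.40 ± 0.30), were not. Of 9 fibroblast and endothelial markers the endothelial gene Emcn fell (-0.63 ± 0.10) and 8 did not pass, with summed signals of 33.6 to 47.9 under bromate and 44.1 to 56.5 under water, and leaving out water replicate 1 made the number that fell 2, while leaving out bromate replicate 2 or 3 or water replicate 2 or 3 made it 0. The part of these markers in the receptor values was not tested.

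Neuregulins bind ErbB4 and in some cases also ErbB3, and epigen, encoded by Epgn, binds the EGF receptor. The remaining ligand genes of the ErbB family are those of the neuregulins and Epgn. Of these 5 listed genes 3 had a named probe, all 3 were tested and 2 rose, against 8.76% of named genes. The brightest Nrg1 probe had levels of 1.87, 2.03 and 2.01 in bromate animals, against 0.80, 0.48 and 1.05 in water animals. It rose by 1.20 ± 0.16 (2.3-fold, adjusted p = 0.01), without overlap. Another Nrg1 probe gave 1.04 ± 0.19 (adjusted p = 0.0221), a further probe 0.97 ± 0.16 (adjusted p = 0.0185), and the dimmest went the other way without passing (-1.03 ± 0.54, adjusted p = 0.236). Nrg2 rose by 0.70 ± 0.16 (adjusted p = 0.0382), a call lost without any 1 array other than water replicate 1. Nrg4 did not pass (0.08 ± 0.22, adjusted p = 0.838).

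The ligand shedding list holds genes of proteases that free the ligands, of helpers of these proteases, and Timp3, which encodes an inhibitor. Of 8 tested genes 1 rose, 1 fell and 6 did not pass, on 1 probe per gene and with a median of 0.19, against 8.76% of named genes that rose and 8.54% that fell. Of the 6, the protease genes Adam15 and Adam9, named after their values were seen, had a dimmer probe called as higher (0.58 ± 0.09 and 0.34 ± 0.08). Rhbdf2, which encodes the rhomboid-like partner iRhom2 of the sheddase ADAM17, had levels of 1.39, 1.26 and 1.15 in bromate animals, against 0.12, 0.13 and 0.05 in water animals. All bromate values were more than 1 log2 unit above all water values, and the difference was 1.16 ± 0.09 (2.24-fold, adjusted p = 0.00242), with the 2 other Rhbdf2 probes also called as higher. Timp3, an inhibitor of ADAM17 and of matrix proteases, had levels of 0.37, 0.60 and 0.52 in bromate animals, against 1.21, 1.26 and 1.16 in water animals. It fell by 0.72 on the log2 scale (-0.72 ± 0.09, 1.64-fold lower, adjusted p = 0.00952). Both calls held when any 1 array was left out. Adam17 itself, named after its value was seen, did not pass (0.11 ± 0.13, adjusted p = 0.603).

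Downstream of the receptors, 1 brake, 5 genes of the signal chain and 9 genes known to answer to ERK rose, on 1 probe per gene. These counts stand against 8.76% of named genes that rose and 8.54% that fell. The 9 include Fosl1, which was tested because of its bromate arrays alone. Of 12 tested brakes on the receptors 1 rose, the ubiquitin ligase gene Cblc (0.86 ± 0.17, adjusted p = 0.0272), 0 fell (0 also at an unadjusted p under 0.05) and 11 did not pass, with a median of 0.23. Of 23 genes of the signal chain 5 rose, 0 fell by limma (1 at an unadjusted p under 0.05) and 18 did not pass, with a median of 0.16. The largest of these was Pik3r1, the regulatory subunit gene of PI3K (1.29 ± 0.16, adjusted p = 0.0078), followed by the transcription factor gene Stat3 (0.83 ± 0.16) and the kinase gene Akt1 (0.49 ± 0.08). Other probes of genes that did not pass were called in Socs5 (0.60 ± 0.07) and Ptprj (0.56 ± 0.13) among the brakes, both higher, and in Mapk3 of the signal chain (-0.44 ± 0.11), lower; these 3 were named after their values were seen. In the signal chain 2 genes rose when bromate replicate 1 or 3 was left out, and 1 when bromate replicate 2 or water replicate 2 or 3 was. Cblc was not called without bromate replicate 2 or 3 or water replicate 2 or 3. Akt1 was not called without bromate replicate 2 or water replicate 2 or 3. The Stat3 call was lost without any 1 array other than water replicate 1.

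Of 15 tested ERK output genes 9 rose, 0 fell (0 also at an unadjusted p under 0.05) and 6 did not pass, against 8.76% of named genes that rose and 8.54% that fell. The list median was 0.88. Fosl1, which encodes a subunit of the AP-1 transcription factor, was at least 19.03-fold higher under bromate, with its probe well above background on 3 bromate arrays and 0 water arrays. It entered the count and the median through the bromate arrays alone. Among the 14 genes well above background on all 6 arrays 8 rose, and their median was 0.81. For such a bound, each array of the dim group counts at its own signal for the probe or at its lowest well-above-background signal, whichever is higher. Myc rose by 2.33 ± 0.20 (adjusted p = 0.00296), Egr1 by 2.30 ± 0.32 (adjusted p = 0.0119) and Fos by 1.70 ± 0.34 (adjusted p = 0.0286), all transcription factor genes that stimuli switch on quickly. The Fos call was lost without any 1 array other than water replicate 1 (adjusted p up to 0.0807) and the Egr1 call without water replicate 2 (adjusted p = 0.0502), and the Myc call held without any 1 array. Dusp6 and Ccnd1, named after their values were seen, did not pass (0.28 ± 0.34 and -0.31 ± 0.30). Dusp6 encodes a phosphatase that switches ERK off and Ccnd1 the cell cycle protein cyclin D1. The number that rose was 5 without bromate replicate 2 and 4 without water replicate 2. Many signals other than the ErbB receptors act on these genes, and which of them acted here was not tested.

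**Figure D5:**
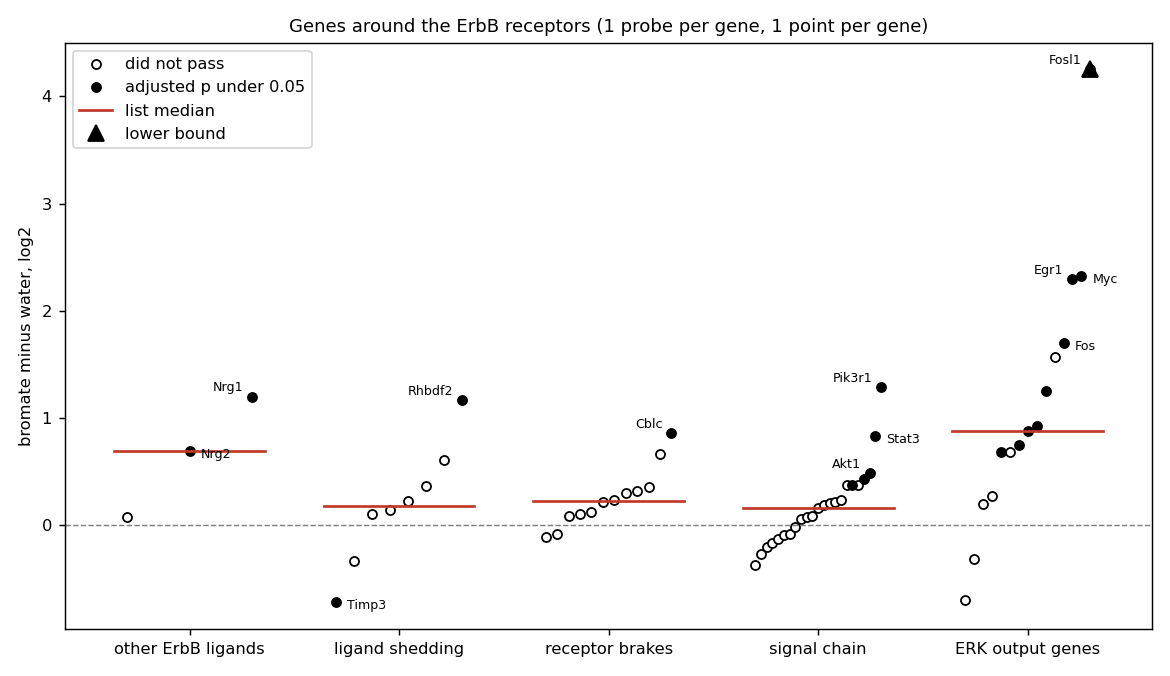
Difference of each tested gene in 5 lists around the ErbB receptors (bromate minus water, log2, y axis), 1 probe per gene, with the list median as a red line. Filled points passed the threshold on the adjusted p, some of them are named, and the triangle gives Fosl1 at its lower bound. The ERK output list has its median at 0.88 and most of its points above 0, and the medians of ligand shedding (0.19), receptor brakes (0.23) and the signal chain (0.16) lie near 0.

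The genes with the pattern most like that of Egf were found from the root mean square difference of log2 values over the 6 arrays, each gene centred on its own mean. Among 11546 named genes the nearest to the Egf probe with the larger fall was Gp2 (0.33), whose glycoprotein is a relative of uromodulin. It was followed by the insulin receptor-related gene Insrr (0.53), Slc26a4 (0.54), the gene of the anion exchanger pendrin, and the glucagon receptor gene Gcgr (0.63). Insrr was dim in bromate animals, with levels of -5.79, -5.17 and -6.09. On each of these arrays it was lower than Erbb2 A_64_P038812, which was well above background on 0 bromate arrays. The nearest to the Hbegf probe that rose was Ppp1r15a (0.062), which encodes a phosphatase subunit of the stress response, followed by Tcp11 (0.067), Zbtb18 (0.076), Net1 (0.082) and Slc25a22 (0.107). All 5 genes near Hbegf had, as Hbegf did, their highest level in bromate replicate 1, a likeness that the search itself selects for. The distances were larger around Egf than around Hbegf, and they say nothing of shared function.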

How the data were processed

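Renal cortex RNA was measured with Cy3 on single-colour arrays from Agilent, 1 per animal, per the labels' protocols. The submitters' processing notes name Agilent Feature Extraction 10.7 for the reading, and the file headers name the build rn4. Per the file headers, the deposited processed signal is an intensity after background subtraction and spatial detrending. It was not yet scaled from array to array. The deposited value table holds a ratio on a linear scale. Every column matched the scanner's processed signal over the array's 75th percentile, with a largest deviation of 0.193% to 0.367% among probes whose ratio was over 0.1, so it is not centred and has the signal's direction. Its column medians were 0.1025, 0.1055 and 0.1026 for bromate replicates 1 to 3 and 0.1043, 0.1049 and 0.1031 for water replicates 1 to 3. None of this is stated in the labels.

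Here the processed signal was divided by its array's 75th percentile over 61537 non-control probes and put on the log2 scale, and outlier spots (0 to 4 per array) were left out. Probes were named through their accession in the gene table of RefSeq (28206 probes, 45.8%, 15645 symbols; the other probes are unnamed here). Groups were taken from the titles and the treatment in the labels, since the VC of the water titles is not spelled out. Each probe well above background on at least 3 arrays was tested for itself with limma 3.58.1 (lmFit, eBayes), run in R 4.3.3 (package data.table, version 1.17.8). Of 37783 such probes 2 could not be fitted. The method was tested on simulated data. For lists the brightest probe stood for a gene, and 112 of 127 entries were tested. Members, lists and motifs were chosen with earlier results of these data known. Genes named are all members, up to 4 called genes of each list with the largest differences, and the 5 nearest in pattern, where passing over provisional symbols (LOC, RGD, MGC) was an exception added to the rule later; other genes were named after their values were seen (Pvalb, Cd163, Ccr2 and Nrg4 among them). Of the genes this rule gives, 2 are not reported here. The labels speak of 3 animals per group. Alternatives concerned normalization, background correction, the value table, filters, outlier spots, probes per gene, the variance model, array weights, slide, replicate number and each array left out.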

Additional observations from a re-analysis of the deposited data

How the results depend on the processing

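With 3 animals per group, changes below 2-fold were near the limit of what these arrays resolve. Of the 18 alternatives, the Egf probes were called in all that tested them (18 and 17), with differences from -5.44 to -4.78 and adjusted p up to 0.0154. The number of member probes that rose (2) was 4 with normexp background correction, 4 with array weights, 1 with 1 probe per gene and 0 by limma without a filter on dim probes (4 at an unadjusted p under 0.05); the number that fell (5) was 2 with 1 probe per gene, where fewer probes enter by construction, and 2 without a filter, where 61535 probes are tested. With 1 array left out, 0 to 3 rose by limma and 2 to 4 fell. The 0 came from leaving out any array but water replicate 1 (4 each time at an unadjusted p under 0.05). With slide as a block, which equals leaving out water replicate 1, 3 rose and 4 fell, and the Hbegf probe called changed to A_64_P041521 (0.77, adjusted p = 0.0488, against 0.81 and 0.0674 for A_44_P184505). Erbb3 A_44_P557246, a dim probe, was -0.14 (adjusted p = 0.253) with normexp. Reversed signs occurred only in probes without a call. Btc A_64_P043767 was 0.0087 with quantile normalization, 0.13 with array weights and 0.20 with slide as a block, and Erbb2 A_64_P038817 was -0.0085 with slide as a block. With 1 array left out, Btc A_64_P043767 ran from -0.60 to 0.34, Btc A_43_P12186 from -0.46 to 0.11, Tgfa A_44_P310168 from -0.079 to 0.98 and Erbb2 A_64_P038817 from -0.028 to 0.036. The cause was not tested. Over all probes, 2717 rose and 2872 fell, against 829 and 757 with the replicate block, 1091 and 1023 without a filter, and 871 and 785 without water replicate 2.

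The replicate numbers of the titles have no stated pairing, and deviations of same-numbered animals correlated at 0.056, 0.073 and -0.091. With the replicate block 1 member probe rose (Hbegf A_64_P041521) and 2 fell (both of Egf).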
